A study of Mus musculus with 25 samples.

Results

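The members described here are 6 genes of growth arrest and cell cycle control in the mouse pituitary: Gadd45a, Gadd45b and Gadd45g, and the CDK inhibitors Cdkn1a (p21), Cdkn1b (p27) and Cdkn1c (p57). They were chosen by gene symbol, and each had 1 row among the 47069 genes of the table. All 6 were among the 19141 genes whose mean value was at least 3 and which were tested. RNA was sequenced from whole pituitaries of 25 hpg mice. All 25 carry the hypogonadal (hpg) mutation, which truncates the Gnrh1 gene, so that placebo and treated animals alike lack working gonadotropin-releasing hormone (GnRH). The groups were 5 placebo females (animals 1 to 5), 6 GnRH females (6 to 11), 6 placebo males (12 to 17) and 8 GnRH males (18 to 25). The submitters' design text speaks of 5 to 7 animals in each condition, whereas the sample labels put 8 in the GnRH males, and the labels were followed. GnRH animals received 1 µg GnRH intraperitoneally once a day for 10 days, placebo animals received saline, and all were killed 1 h after the last injection. With 1 schedule and 1 sampling time, effects of the last dose and of repeated dosing cannot be told apart. Age is not stated in the labels. Values are regularized log2 (rlog) values, on which a difference of 1 is a doubling before the shrinkage that the method applies. They are not scaled to gene length, so levels are compared between animals and not between genes.

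GADD45 proteins are small, acidic nuclear proteins without enzyme activity that are induced by stress and growth arrest. They bind the kinase MAP3K4 and thereby activate p38 and JNK, and they also bind PCNA and the CDK1 and cyclin B complex. Gadd45a is a target of p53, Gadd45b responds quickly to TGF-beta and NF-kappaB, and GADD45G is known for its loss in many human pituitary adenomas. The CIP/KIP inhibitors bind cyclin and CDK complexes and restrain entry into the cell cycle. Cdkn1a is the classical p53 target, mice without Cdkn1b develop tumours of the pituitary intermediate lobe, and Cdkn1c, an imprinted gene expressed from the maternal allele, takes progenitors of the developing pituitary out of the cycle.

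In the annotation of GENCODE on GRCm38 the 6 genes are protein coding. Gadd45a lies on chromosome 6 from 67035096 to 67037457 (minus strand), Gadd45b on chromosome 10 from 80930073 to 80932204 (plus) and Gadd45g on chromosome 13 from 51846678 to 51848468 (plus). Cdkn1a lies on chromosome 17 from 29090976 to 29100727 (plus), Cdkn1b on chromosome 6 from 134920401 to 134925513 (plus) and Cdkn1c on chromosome 7 from 143458339 to 143461050 (minus). Exons of Gadd45a overlap the antisense transcript E230016M11Rik, and whether counting used strand is not stated, so reads of the overlap cannot be assigned to either gene. E230016M11Rik had a log2 difference with GnRH, as the mean of both sexes, of 0.07 (adjusted p = 0.713 by limma). Exons of Cdkn1a overlap AC167363.2 and those of Cdkn1c overlap Gm44732, each on the opposite strand. Neither of these was analysed here.

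The upstream sequences of Gadd45b, Gadd45g and Cdkn1a are shown because these 3 members rose with GnRH in the mean of the sexes. RefSeq windows on build GRCm38.p6 were matched for 5 of the 6 members, with no entry for Cdkn1c, and Cdkn1a had 2 start sites. Each line holds the 250 bases before the start site, 5′ to 3′ on the gene's own strand. Capitals mark matches, on either strand, to the motifs spelled out after the sequences. The windows are chr10:80929841-80930090 (plus strand) for Gadd45b, chr13:51846425-51846674 (plus) for Gadd45g and chr17:29090729-29090978 (plus) for the upstream start of Cdkn1a.
Gadd45b: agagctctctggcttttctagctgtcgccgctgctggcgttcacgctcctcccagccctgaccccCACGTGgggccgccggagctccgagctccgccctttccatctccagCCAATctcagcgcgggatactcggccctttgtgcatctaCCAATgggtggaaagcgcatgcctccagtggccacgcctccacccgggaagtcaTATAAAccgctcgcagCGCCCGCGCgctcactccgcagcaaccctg
Gadd45g: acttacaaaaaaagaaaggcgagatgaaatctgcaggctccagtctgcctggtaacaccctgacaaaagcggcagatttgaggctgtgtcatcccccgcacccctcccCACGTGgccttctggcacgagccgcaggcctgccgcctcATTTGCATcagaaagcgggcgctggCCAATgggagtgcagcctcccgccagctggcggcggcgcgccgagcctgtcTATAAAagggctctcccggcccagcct
Cdkn1a: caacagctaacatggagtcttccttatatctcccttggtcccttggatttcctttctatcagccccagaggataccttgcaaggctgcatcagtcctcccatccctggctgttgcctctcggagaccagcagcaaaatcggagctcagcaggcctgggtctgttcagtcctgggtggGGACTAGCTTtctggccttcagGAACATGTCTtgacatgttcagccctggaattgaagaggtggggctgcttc

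The motifs searched on both strands were the full cAMP response element or CRE (TGACGTCA) and its core (TGACG), which it contains, AP-1 (TGANTCA) and EGR (GCGNGGGCG). Further motifs were the E-box (CACGTG), the CCAAT box (as named), an octamer (ATGCAAAT), the TATA box (TATAAA), the CArG box and the p53 decamer, of which a p53 response element holds a pair. The E-box and the octamer were added after the sequences had been read. Gadd45b and Gadd45g each held 1 E-box, at -185 and -142 from the start, a sequence present in 6.02% of the 32851 windows of this length. Each also held a TATA box, at -46 and -27, found in 12.4% of all windows. CCAAT boxes stood at -139 and -100 in Gadd45b and at -78 in Gadd45g (33.8% of all windows). Gadd45b had 1 EGR match at -30 (4.70% of all windows). Gadd45g had 1 octamer at -103, and Gadd45a had 2, at -97 and -70 (1.60% of all windows). The upstream window of Cdkn1a had 2 p53 decamer matches, at -73 and -51, and that of Gadd45a had 1, at -40 (7.13% of all windows). The downstream window of Cdkn1a (chr17:29093519-29093768, plus strand, not shown) matched none of the motifs searched, and Cdkn1b matched only the CCAAT box. None of the 6 windows held the letters of the full CRE (1.55% of all windows), its core (17.8%), AP-1 (6.75%) or the CArG box (1.47%). These are matches of letters within 250 bases and not binding sites.

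The libraries were alike in scale, with medians of the genes tested between 8.09 and 8.13 and correlations between 0.992 and 0.998. The depth of each library is unknown. The treatment label was checked on Fshb, the FSH beta subunit, which was above every placebo animal of its sex in 14 of 14 GnRH animals. For Atf3, the other gene of this check, 13 of 14 were, and 1 GnRH male lay below the placebo mean of its sex. GnRH males 18 and 21 stood apart. The mean value of a list of 29 immediate early genes, which holds none of the 6 members, was 10.28 in animal 18 and 10.30 in animal 21, against 9.19 to 9.62 in the other 6 GnRH males. The male differences of Gadd45b, Gadd45g, Cdkn1a and Cdkn1c are given with and without them. Nothing in the sources used here says how the animals were grouped in cages, litters or days. The p-values set each difference against the spread between these animals, taken as independent, and may be too small if the animals were not.

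Averaged over both sexes, Gadd45b, Gadd45g and Cdkn1a were higher after GnRH, by 1.48-, 1.34- and 1.41-fold on the rlog scale, whereas Gadd45a, Cdkn1b and Cdkn1c did not pass the test. Within females none of the 6 passed, and within males Gadd45g did.

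Gadd45b, the family member known as a rapid response to TGF-beta, was 8.28, 8.26, 8.63, 8.27 and 8.61 in placebo females 1 to 5. In the 6 GnRH females it ran from 8.65 to 9.38 with a median of 8.92, so that the female groups did not overlap. It was the only 1 of the 6 members whose groups did not overlap and were higher with GnRH in females, where 0.528% of the genes tested did so and 0.768% were separate in either direction. In placebo males Gadd45b ran from 8.15 to 8.79 with a median of 8.66, and in GnRH males from 8.73 to 9.75 with a median of 9.20. Animals 18 and 21 were highest at 9.75 and 9.66, and 7 of 8 GnRH males lay above every placebo male. The exception, animal 19, had 8.73. In males the groups of all 6 members overlapped, where 0.345% of all genes were higher without overlap and 0.402% were separate in either direction. The log2 difference was 0.54 (SE 0.16) in females, with an adjusted p = 0.24 by limma, and 0.58 (SE 0.14) in males, with an adjusted p = 0.0625. Neither difference passed by itself, and both together gave 0.56 (SE 0.11, adjusted p = 0.00321), with 13 of 14 GnRH animals above every placebo animal of their sex. In males Gadd45b passed when GnRH animal 19 (adjusted p = 0.0205), 22 (0.0362) or 23 (0.0430) was left out. Without placebo male 14, the lowest of its group at 8.15, the male difference was 0.49 (adjusted p = 0.234), and without GnRH males 18 and 21 it was 0.41 (adjusted p = 0.309). In a pituitary homogenate, more RNA per cell and more cells that carry the RNA cannot be told apart, and this holds for every difference given here.

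Gadd45g, the family member lost in many pituitary adenomas, was 8.27, 8.45, 8.15, 8.15 and 7.98 in placebo females 1 to 5. In GnRH females it lay between 8.44 and 8.73 with a median of 8.59, and 5 of 6 animals were above every placebo female. Animal 10, at 8.44, was just under placebo animal 2. In placebo males it ran from 7.84 to 8.41 with a median of 7.96, where animals 15 and 16 were the high ones at 8.30 and 8.41. In GnRH males it ran from 8.31 to 8.73 with a median of 8.47, and 7 of 8 were above every placebo male. The treated groups were narrow, with SDs of 0.10 (n = 6) in females and 0.15 (n = 8) in males, against 0.17 (n = 5) and 0.24 (n = 6) in the placebo groups. Gadd45g rose in males by 0.46 (SE 0.09, adjusted p = 0.00774 by limma), a 1.38-fold difference. It was the only 1 of the 6 members called in males, where 0.496% of all genes tested were called and 0.449% were called higher. In females the difference was 0.38 (SE 0.10, adjusted p = 0.135), and over both sexes it was 0.42 (SE 0.07, adjusted p = 0.000331). The call in males was kept in 25 of 25 fits without a single animal, with adjusted p of up to 0.0341. Without GnRH males 18 and 21 together it had 0.40 and an adjusted p = 0.0606.

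Gadd45a, the p53-responsive family member, showed no such separation. It was 9.72, 9.65, 9.52, 9.26 and 9.52 in placebo females 1 to 5 and ran from 9.16 to 9.72 (median 9.46) in GnRH females. Placebo males ran from 9.29 to 9.88 (median 9.56) and GnRH males from 9.33 to 9.85 (median 9.47), so that the groups overlapped over nearly their whole range. The log2 difference was -0.07 (SE 0.11, adjusted p = 0.858) in females and -0.03 (SE 0.10, adjusted p = 0.999) in males. Over both sexes the 95% interval ran from -0.21 to 0.10, while the intervals of Gadd45b (0.34 to 0.78) and Gadd45g (0.29 to 0.56) lay wholly above it. The difference between family members was not tested.

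**Figure D1:**
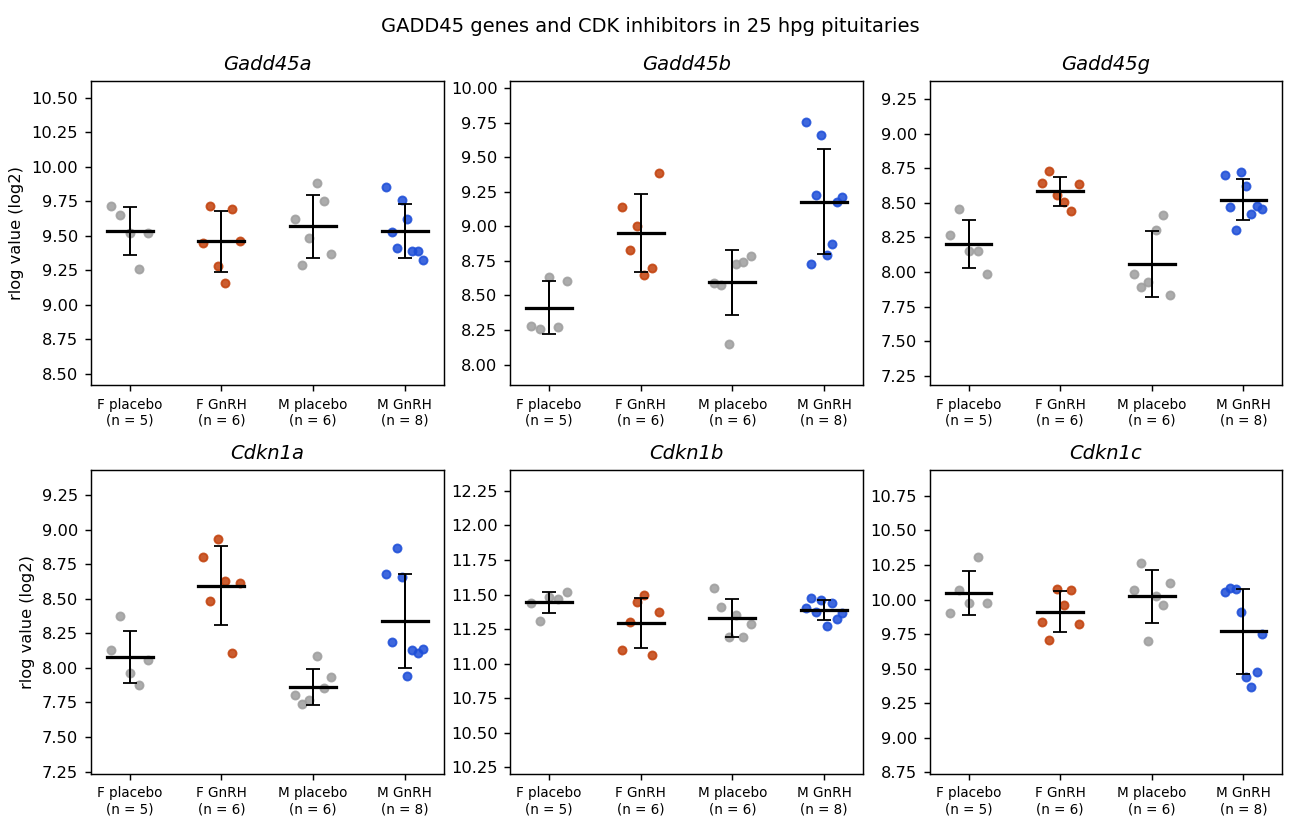
Values of the 6 genes in 25 pituitaries, as rlog values (log2) on the vertical axes, each spanning the same width. Points are animals, thick bars group means and thin bars 1 SD. Gadd45b, Gadd45g and Cdkn1a sit higher in the GnRH groups of both sexes, and 3 GnRH males have Cdkn1c below 9.5.

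Among the CDK inhibitors, Cdkn1a was the member that rose. In placebo females 1 to 5 it was 8.13, 8.37, 7.96, 7.87 and 8.06. In GnRH females it ran from 8.11 to 8.93 with a median of 8.62, and 5 of 6 were above every placebo female. Animal 10, at 8.11, lay among the placebo values. Placebo males ran from 7.74 to 8.08 with a median of 7.83, and GnRH males from 7.94 to 8.87 with a median of 8.16. The GnRH males fell apart into animals 18, 20 and 21, at 8.68, 8.87 and 8.66, and the other 5, at 7.94 to 8.19. The SD in GnRH males was 0.34 (n = 8), against 0.13 (n = 6) in placebo males. The log2 difference was 0.52 (SE 0.14, adjusted p = 0.201 by limma) in females and 0.48 (SE 0.13, adjusted p = 0.117) in males. Over both sexes it was 0.50 (SE 0.10, adjusted p = 0.00388), with 12 of 14 GnRH animals above every placebo animal of their sex. Without GnRH animal 10, the lowest of its group, the female difference was 0.61 and passed (adjusted p = 0.0458). This was the only 1 of 25 fits without a single animal that passed in females. Over these fits the female difference lay between 0.45 and 0.61, with adjusted p of up to 0.435 by limma. The male difference was 0.37 without GnRH males 18 and 21 (adjusted p = 0.5).

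Cdkn1b, whose product p27 restrains pituitary growth, varied least of the 6. Its within-group SD over all animals was 0.12, larger than that of 56.2% of the genes tested, against 0.30 for Gadd45b and 98.3%. Placebo females 1 to 5 had 11.44, 11.31, 11.48, 11.47 and 11.52, and GnRH females ran from 11.06 to 11.49 (median 11.33), with animals 6 and 10 low at 11.10 and 11.06. Placebo males ran from 11.19 to 11.54 (median 11.32) and GnRH males from 11.27 to 11.48 (median 11.39). The log2 difference was -0.15 (SE 0.07, adjusted p = 0.525) in females and 0.06 (SE 0.06, adjusted p = 0.999) in males. The groups overlapped in both sexes.

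Cdkn1c, the imprinted inhibitor, had negative differences in both sexes that did not pass. Placebo females 1 to 5 had 9.90, 10.07, 9.98, 10.31 and 9.97, and GnRH females ran from 9.71 to 10.08 (median 9.90). Placebo males ran from 9.70 to 10.26 (median 10.04) and GnRH males from 9.37 to 10.09 (median 9.83). Animals 22, 23 and 24 were low at 9.44, 9.37 and 9.47, below every placebo male, while animals 18, 19 and 20 were at 10.06, 10.09 and 10.08. The log2 difference was -0.13 (SE 0.12, adjusted p = 0.739 by limma) in females and -0.25 (SE 0.11, adjusted p = 0.65) in males. The male difference was -0.32 without GnRH males 18 and 21 (adjusted p = 0.494). Over both sexes it was -0.19 (SE 0.08, adjusted p = 0.322), with 9 of 14 GnRH animals below the placebo mean of their sex. The 3 GnRH males with the lowest Cdkn1c were not those with the highest Cdkn1a, since animals 22, 23 and 24 had Cdkn1a values of 7.94, 8.13 and 8.11.

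By count, limma called 0 of the 6 members in females at an adjusted p under 0.05, where 0.0993% of all genes tested were called, and 3 of the 6 had an unadjusted p under 0.05, where 9.57% of all genes had. In males 1 of 6 was called (0.496% of all genes) and 4 of 6 had an unadjusted p under 0.05 (6.42% of all genes). For the mean of the sexes 3 of 6 were called, all higher, where 1.71% of all genes were called and 1.42% were called higher, and 4 of 6 had an unadjusted p under 0.05 (12.0% of all genes). With libraries weighted by quality, limma called 1 of 6 in females, where the calls over all genes came to 0.324%, and 3 of 6 in males, where they came to 1.25%. The exact two-sided permutation test of single genes gave p = 0.00649 for Gadd45b, 0.00433 for Gadd45g and 0.013 for Cdkn1a in females. In males it gave exact p = 0.004 for Gadd45b, 0.000666 for Gadd45g and 0.00566 for Cdkn1a. An exact p under 0.05 was reached by 3 of 6 members in each sex, against 7.02% of all genes in females and 7.08% in males. Adjusted over all genes, the exact test called 0 genes in either sex, and its smallest adjusted p was 0.565 in females and 0.168 in males. The smallest exact p that the permutations can give is 0.00216 in females and 0.000333 in males, so that after adjustment over all genes a call in males would need 128 genes at that value, and one in females still more. In all 25 fits without 1 animal, the 3 calls over both sexes were kept, with adjusted p of up to 0.00912 for Gadd45b, 0.00131 for Gadd45g and 0.0125 for Cdkn1a. Without GnRH males 18 and 21 together the differences over both sexes were 0.47, 0.39 and 0.44, with adjusted p = 0.00392, 0.00103 and 0.0109.

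**Figure D2:**
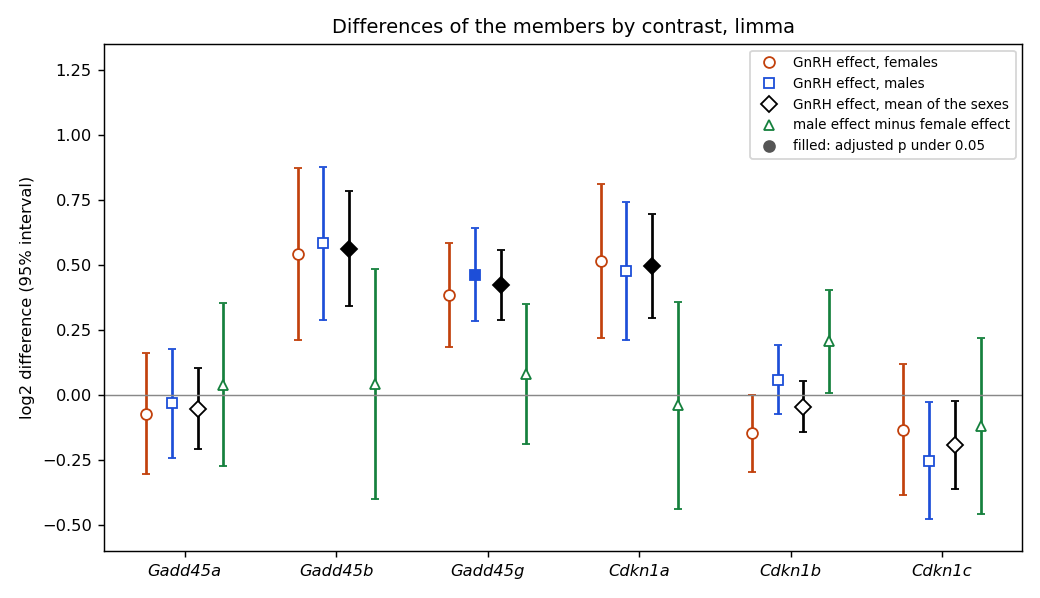
Log2 differences of the 6 genes (vertical axis) with 95% intervals from limma, for the GnRH effect in females, in males and as the mean of the sexes, and for the male effect minus the female effect. Filled symbols have an adjusted p under 0.05, which are Gadd45b, Gadd45g and Cdkn1a for the mean of the sexes and Gadd45g in males.

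Whether GnRH acted more on a member in one sex was tested as an interaction term, and limma called 0 of the 6 members and 0% of all genes. At an unadjusted p under 0.05 there was 1 member, Cdkn1b, with a male effect minus female effect of 0.21 (95% interval 0.01 to 0.40, adjusted p = 0.999), while 2.76% of all genes were under that level. For the 3 members that rose, the interval of this difference ran from -0.40 to 0.49 for Gadd45b, from -0.19 to 0.35 for Gadd45g and from -0.44 to 0.36 for Cdkn1a. Each interval spans 0 and reaches over 0.3, so these data do not show that the sexes respond alike.

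Between the sexes within placebo, limma called 0 of the 6 members, against 0.0470% of all genes, and 0 of 6 had an unadjusted p under 0.05, against 3.07% of all genes. Within GnRH it called 0 of 6, against 0.0522% of all genes, and again 0 of 6 had an unadjusted p under 0.05, against 5.53% of all genes. The largest of these differences in size was that of Cdkn1a in GnRH animals, with males minus females at -0.26 (SE 0.13, adjusted p = 0.905). This was -0.37 without GnRH males 18 and 21 (SE 0.13, adjusted p = 0.9999 by limma), and its unadjusted p by limma was then 0.00892. Both animals had high Cdkn1a among the GnRH males (8.68 and 8.66), so leaving them out of the male side alone widens this difference. The unadjusted p of that fit cannot by itself show a sex difference. In order of group means, Gadd45b was highest in GnRH males, followed by GnRH females, placebo males and placebo females. Gadd45g and Cdkn1a shared another order, with GnRH females first, then GnRH males, placebo females and placebo males. Cdkn1c ran from placebo females over placebo males and GnRH females to GnRH males. For each of the 6 genes, every pair of groups next to each other in its order overlapped.

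Some animals stood alike for several of the 3 members that rose. GnRH female 10 had the lowest Gadd45g (8.44) and Cdkn1a (8.11) of its group and the second lowest Gadd45b (8.70). GnRH males 18 and 21 had the highest Gadd45b and Gadd45g of theirs, at 9.75 and 9.66 and at 8.70 and 8.73, and with animal 20 the highest Cdkn1a. Such likeness was not confined to the members that rose. Animals 18 and 21 also had the highest Gadd45a of the GnRH males, at 9.85 and 9.76. GnRH female 10 had the second highest Gadd45a (9.69) and the lowest Cdkn1b (11.06) of its group. Other animals differed between members. GnRH male 20 had the highest Cdkn1a of the GnRH males, at 8.87, and the lowest Gadd45g of that group, at 8.31. GnRH female 11 had the highest Gadd45b of its group, at 9.38, with a Cdkn1a of 8.61 near the group's median. GnRH female 9 had the lowest Gadd45b of its group, at 8.65, with a Cdkn1a of 8.63.

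**Figure D3:**
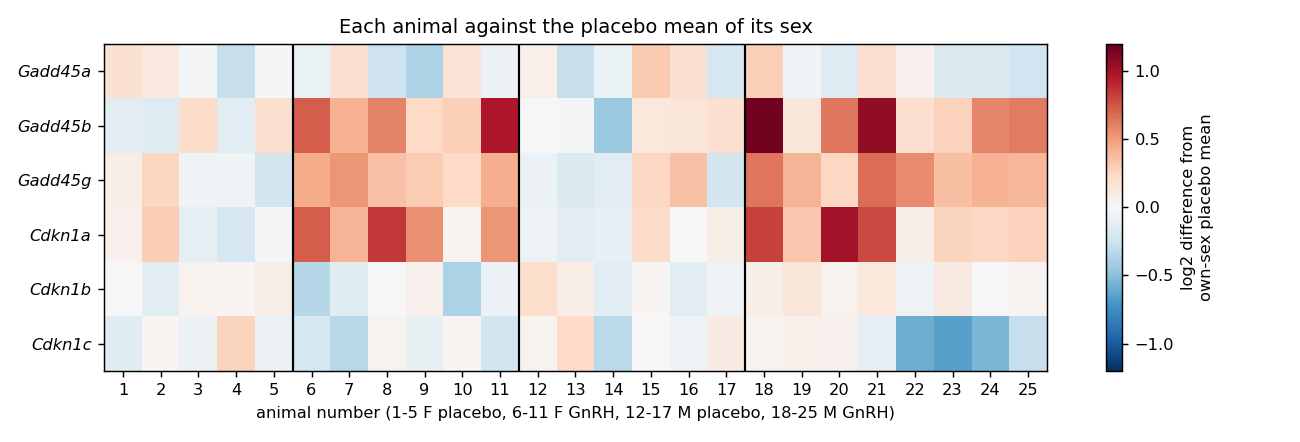
Each animal's value minus the placebo mean of its sex, for the 6 genes (rows) and 25 animals (columns), in log2 units from blue (lower) to red (higher). The rows of Gadd45b, Gadd45g and Cdkn1a are red in most GnRH columns, most deeply for Gadd45b in animals 18 and 21. Some of these cells are near white, such as Cdkn1a in animals 10 and 22. Cdkn1c is blue in animals 22 to 24.

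To ask whether the members vary together beyond the treatment, group means were subtracted and the 15 pairs were correlated over 25 animals, with permutation of values within groups. Only Gadd45a with Gadd45g passed after adjustment over the 15 pairs. Its Pearson r was 0.69 (permutation p = 0.00045, adjusted 0.00675) and its Spearman rho 0.65 (permutation p = 0.00116, adjusted 0.0174). Without animals 18 and 15, which were farthest from the median of Gadd45a, r was 0.62. The r was 0.87 over the 14 males and 0.36 over the 11 females, a difference that was not tested. Without GnRH males 18 and 21, r was 0.62 and missed the threshold (permutation p adjusted to 0.101). Gadd45b with Cdkn1a had r = 0.54 (permutation p = 0.0228, adjusted 0.171) and rho = 0.54 (permutation p = 0.0141, adjusted 0.106), with r = 0.41 without animals 18 and 21. Its r was 0.64 over the 14 GnRH animals and 0.10 over the 11 placebo animals, a difference that was not tested. Gadd45b with Gadd45g had r = 0.27 (permutation p = 0.187, adjusted 0.418) and rho = 0.21 (permutation p = 0.32, adjusted 0.581). The remaining 12 pairs had r between -0.28 and 0.40.

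For each member, the 3 genes with the most similar values over the 25 animals were listed, again after subtraction of group means, as a description without a test. Nearest to Cdkn1a were Hmga1b (r = 0.89), Srxn1 (0.87), which restores oxidized peroxiredoxins, and Hmga1 (0.86), a chromatin protein. Hmga1b is a near-copy of Hmga1, so reads may have been split between them. Nearest to Gadd45b were Nptx2, Tuft1 and Vgf, each at r = 0.79, and without animals 18 and 21 these were 0.68, 0.62 and 0.62. Nptx2 is a neuronal pentraxin and Vgf a granule peptide. Nearest to Gadd45g were Tpcn1 (r = 0.77), Senp2 (0.74) and Trmt10b (0.72), and nearest to Gadd45a were Tubgcp3 (0.83), Neil1 (0.82) and Eme2 (0.75). Cdkn1b was nearest to Runx1t1 (0.88), Robo2 (0.87) and Xiap (0.86). Cdkn1c was nearest to Aldoc, Hmgb1 and Otof, each at r = 0.80, and Otof (otoferlin, which acts in calcium-triggered exocytosis) fell by 0.86 over both sexes (adjusted p = 0.000178 by limma). The genes nearest to Cdkn1a and Gadd45b rose over both sexes as well, such as Srxn1 (0.97, adjusted p = 0.00185) and Vgf (1.03, adjusted p = 0.00109). Those nearest to Gadd45g did not pass, such as Tpcn1 with 0.04 (adjusted p = 0.683).

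The genes that act around the members were taken as lists. Over both sexes 1.42% of all genes tested were called higher and 1.71% in either direction. In the p53 pathway, which drives Cdkn1a and Gadd45a after DNA damage, 1 of 27 genes rose over both sexes and 0 fell. This was Plk3, a stress kinase, with a log2 difference of 0.27 (SE 0.07, adjusted p = 0.0419). The median of the list was 0.02, and 14 of 27 differences were positive, against a median of -0.00088 over all genes tested. Within each sex limma called 0 of the 27. In females 2 and in males 1 had an unadjusted p under 0.05, against 9.57% and 6.42% of all genes. With libraries weighted by quality, 1 was called in males, where 1.25% of all genes tested were called. Without GnRH males 18 and 21, and likewise with no filter on low values, 0 of 27 were called over both sexes. Of 17 genes listed around GADD45 in p38 and JNK signalling, 2 rose over both sexes and 0 fell, with a median of 0.03. The list includes downstream kinases and the stress genes Ppp1r15a and Ddit3, so not all 17 are binding partners of GADD45. The 2 that rose were the p38 kinases Mapk11 (0.35, SE 0.06, adjusted p = 0.00109) and Mapk12 (0.19, SE 0.05, adjusted p = 0.042). Mapk11 also rose in males, by 0.42 (SE 0.08, adjusted p = 0.00959). Map3k4, the kinase that GADD45 proteins bind, had -0.02 (adjusted p = 0.924) and is named as that partner. Without GnRH males 18 and 21, and likewise with no filter, 1 of the 17 was called over both sexes. Within females 0 of 17 were called by limma and 4 had an unadjusted p under 0.05, against 9.57% of all genes.

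In 5 lists of genes of the cell cycle, its inhibitors and imprinted growth, none passed over both sexes. Limma called 0 of 13 cyclins and CDKs over both sexes (median 0.04). Ccnd3 had 0.09 (adjusted p = 0.429) and Ccne2 -0.11 (adjusted p = 0.53). It called 0 of 15 tested genes in the list of INK4 inhibitors and the RB and E2F family (median -0.04), with Cdkn2c at -0.06 (adjusted p = 0.647). Cdkn3, a phosphatase placed in this list, was at 0.08 (adjusted p = 0.408). Limma called 0 of 12 genes of p27 turnover and transcription (median 0.02), with Foxo4 at 0.02 (adjusted p = 0.884) and Men1 at 0.04 (adjusted p = 0.772). It called 0 of 16 proliferation genes (median 0.01), with Pcna, a binding partner of both p21 and GADD45, at 0.10 (adjusted p = 0.415) and Mcm2 at -0.12 (adjusted p = 0.375). Of the imprinted growth genes 0 of 12 tested were called (median 0.02), with Zim1 at 0.29 (adjusted p = 0.104) and Mest at -0.02 (adjusted p = 0.897). Summed over these 5 lists, 5 of 68 genes had an unadjusted p under 0.05 over both sexes, a smaller share than the 12.0% of all genes tested. Within each sex limma called 0 of the 68, with 3 under that level in females and 3 in males, against 9.57% and 6.42% of all genes. With libraries weighted by quality, 1 imprinted gene was called over both sexes.

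Immediate early genes, the class in which Gadd45b and Gadd45g are often counted, had the most calls of the 9 lists. Without the members, 8 of 29 rose over both sexes and 0 fell, where 1.42% of all genes tested were called higher. The median was 0.32 and 28 of 29 were positive. With no filter or no variance trend, 5 of 29 were called. By smallest p these were led by Atf3 (2.08, SE 0.34, adjusted p = 0.000638), the transcription factor Klf10 (0.49, SE 0.08, adjusted p = 0.000698), the antiproliferative gene Btg1 (0.26, SE 0.04, adjusted p = 0.000934) and the orphan receptor Nr4a3 (1.22, SE 0.21, adjusted p = 0.00109). Within males 4 of 29 rose, where 0.449% of all genes were called higher. Without animals 18 and 21 none of the 4 did (0 of 29 called). Within females limma called 0 of 29, and 10 had an unadjusted p under 0.05, against 9.57% of all genes. In females 1 of 29 was called without GnRH males 18 and 21, and in males 1 was called with no filter. Of 12 glucocorticoid-responsive genes 2 rose over both sexes, the metallothioneins Mt1 (0.40, SE 0.09, adjusted p = 0.0122) and Mt2 (0.41, SE 0.10, adjusted p = 0.0267), with a median of 0.21. Within each sex limma called 0 of these 12. In each sex 3 had an unadjusted p under 0.05, against 9.57% of all genes in females and 6.42% in males. With libraries weighted by quality limma called 2 in females and 1 in males, against 0.324% and 1.25% of all genes tested. Of the 12, 1 was called over both sexes without GnRH males 18 and 21 or with no filter.

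**Figure D4:**
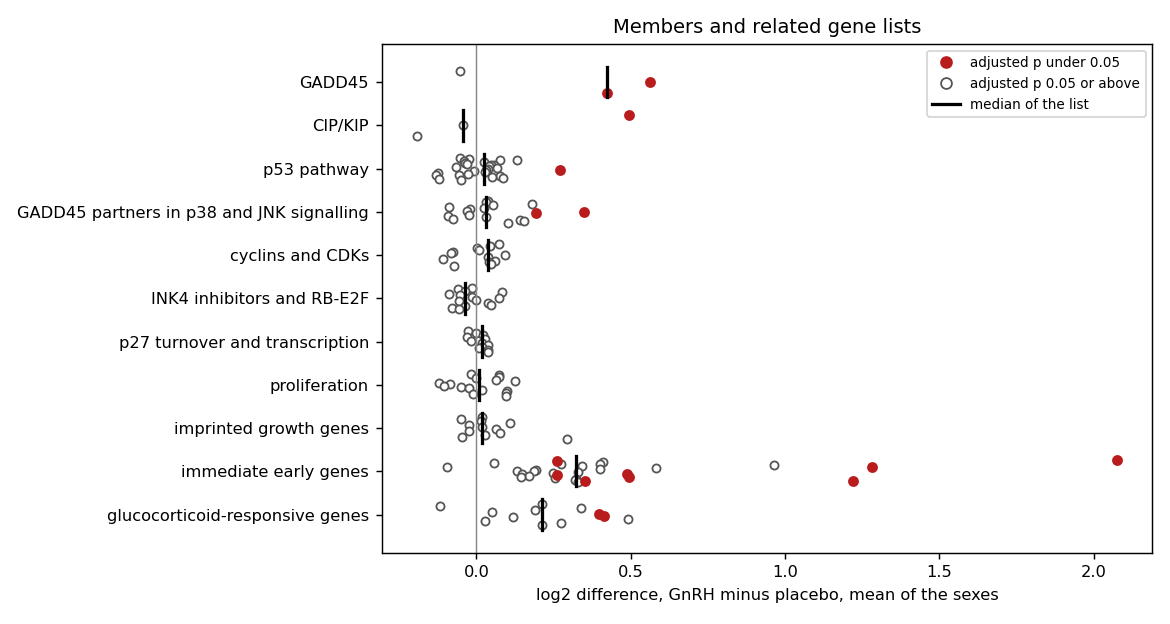
Log2 differences over both sexes (horizontal axis) for the 2 families of members and 9 lists of related genes, with filled red points at an adjusted p under 0.05 and bars at the list medians. Filled points appear among the members, the immediate early genes, the p53 pathway, p38 and JNK signalling and the glucocorticoid-responsive genes. None appear among cyclins, proliferation genes or p27 regulators.

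Of the 12 marker lists, 2 held genes called over both sexes. Of 5 gonadotrope genes, Fshb (2.42), Lhb (0.38, adjusted p = 0.0141) and Gnrhr (0.66, adjusted p = 0.00109) rose by limma, and Nr5a1 fell by 0.38 (adjusted p = 0.0222). Cga had 0.41 and did not pass (adjusted p = 0.0707). The mean level of this list ran from 10.49 to 10.93 in placebo and from 11.27 to 11.60 in GnRH females. In males it ran from 10.45 to 10.86 in placebo and 11.18 to 11.70 in GnRH animals. Fshb had the largest difference of the 5, at 2.07 in females and 2.77 in males, and so weighs most on this mean. Of 5 endothelial genes Emcn (0.25, adjusted p = 0.00289) and Plvap (0.18, adjusted p = 0.0239) rose, and Pecam1, Cdh5 and Kdr did not pass (adjusted p = 0.497, 0.642 and 0.23). Their list ran from 9.79 to 9.98 in placebo and 9.90 to 10.18 in GnRH females, and from 9.86 to 9.94 in placebo and 9.86 to 10.24 in GnRH males. The part of either in the differences of Gadd45b, Gadd45g and Cdkn1a was not tested. Limma called 0 genes over both sexes among 40 markers of 10 other kinds of cell, and 3 of these had an unadjusted p under 0.05, against 1.71% and 12.0% of all genes tested. These lists cover the other 5 hormone cell types, stem cells, the posterior lobe, pericytes with fibroblasts, macrophages and blood. The blood list includes the globin genes Hba-a1, Hba-a2, Hbb-bs and Hbb-bt, and globin transcripts were depleted before sequencing. The result of the blood list therefore cannot decide on blood content. None of the markers was at 0 in every library.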

How the data were processed

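Polyadenylated RNA of 25 pituitaries was sequenced after depletion of ribosomal and globin transcripts (RNA integrity numbers above 8.2, median 9.1), per the labels' protocols. The deposited table holds regularized log2 values, per the file's name, a transformation that shrinks low genes towards their mean. The submitters' processing notes name bcl2fastq, STAR, featureCounts and build mm10, without versions, annotation or strand. No counts were used, so depth is unknown.

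Of 47069 genes, 13765 were at 0 in every library and 19141 reached a mean of 3 and entered the tests. limma 3.58.1 (R 4.3.3) fitted 4 group means to 25 libraries with a variance trend. Two-sided p-values were adjusted over all genes tested (Benjamini-Hochberg, threshold 0.05), and every adjusted p not named otherwise is from limma, which was tested on simulated data. Exact tests and 100000 permutations used scipy 1.17.1 in Python 3.11.15.

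Members, lists and tests were chosen with earlier results of these data known. Named are all 6 members, the 3 nearest genes of each, Fshb, and from each of 9 lists the genes past the threshold in females, males or their mean (at most 4, by smallest p), otherwise the 2 with the smallest p in males. Marker genes, the antisense gene and Map3k4 fall outside this rule and were named after their values were seen. Alternatives were quantile normalization, median centring, other filters, no trend, library weights, only the groups compared, the exact test and animals left out.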

Additional observations from a re-analysis of the deposited data

Results flagged for a closer look

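Placebo male 14 had a Gadd45b value of 8.15, with the next lowest placebo male at 8.57, a gap large enough against the group's range to set it apart by Dixon's criterion. This was the only 1 of 24 combinations of gene and group that was set apart, and chance alone does so in about 1 of 20 groups. Without this animal the Gadd45b difference in males was 0.49 (adjusted p = 0.234 by limma), and over both sexes it was 0.52 (adjusted p = 0.00765).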

How the results depend on the processing

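No paired analysis was possible because the labels number the animals from 1 to 25 and share no number between groups. With library quality weights from limma, 1 member (Gadd45g, 0.44, adjusted p = 0.0421) was called in females and 3 in males, where Gadd45b had 0.64 (adjusted p = 0.0149) and Cdkn1a 0.56 (adjusted p = 0.017). In males 0 members were called without GnRH males 18 and 21. The exact test adjusted over all genes also called 0, a loss that the few possible splits nearly fix and that says nothing of stability. The number of members called lay between 0 and 1 in females and between 1 and 2 in males over fits that left out 1 animal, and stayed at 3 for the mean of the sexes in each limma setting run. Of the 15 relations among members 0 passed without GnRH males 18 and 21, and 1 to 2 did without any single animal, with 2 without GnRH male 20. Over all genes, calls in females numbered 19, against 7 with no filter, 62 with library weights, 32 without GnRH males 18 and 21, 0 by the exact test and 4 to 67 without 1 animal. In males they numbered 95, against 42, 239, 38, 0 and 46 to 153. For the mean of the sexes they numbered 327, against 942 with library weights and 235 to 389 without 1 animal.

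With library weights the sign turned for Gadd45a, at 0.0297 in males, 0.00632 for the mean of the sexes and -0.00299 between the sexes in placebo, and for Cdkn1a, at 0.00263 for the sex difference of the effect. Further sign changes came without GnRH males 18 and 21, where the sex difference of the effect was -0.0511 for Gadd45a and -0.134 for Gadd45b, the difference between the sexes in GnRH animals was -0.0162 for Gadd45a, and Gadd45a had r = -0.0507 with Gadd45b and -0.082 with Cdkn1a. Without 1 animal, Gadd45a in males lay between -0.0878 and 0.0297 and between the sexes in placebo between -0.0332 and 0.0901, and Cdkn1c there between -0.0715 and 0.043. The sex difference of the effect lay between -0.0206 and 0.108 for Gadd45a, -0.0465 and 0.129 for Gadd45b, and -0.137 and 0.028 for Cdkn1a. The r of Gadd45a with Cdkn1c lay between -0.194 and 0.0325 and that of Cdkn1a with Cdkn1b between -0.00115 and 0.3. With library weights, list calls over both sexes came to 4 in p38 and JNK signalling, 4 among glucocorticoid-responsive genes and 1 among imprinted genes. In that fit 942 of all 19141 genes tested were called. Within a sex the list calls came to 1 p53 gene in males and to 2 and 1 glucocorticoid-responsive genes in females and males. Calls over all genes came to 0.324% in females and 1.25% in males. The cause was not tested. Unknown depth and shrinkage limit what can be said of small differences.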
